A study of Mus musculus with 6 samples.

Results

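Autophagy and lysosomal digestion are the paired steps by which a liver cell takes down its own contents, and 35 of their genes were followed here in livers of mice lacking Gα12. The genes are 23 of the autophagy machinery, 10 of the lysosomal membrane and of lysosomal enzymes, and the transcription factor genes Tfeb and Tfe3. They were chosen by name, and a probe was taken as theirs where its transcript accession belonged to the gene in RefSeq GRCm38. All 35 were matched, by 47 probes, among 12258 named genes that passed a filter on dim probes, and all 47 probes passed it.

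Livers came from 3 Gα12 KO mice, which lack the G protein α subunit encoded by Gna12, and from 3 wild-type (WT) mice. All 6 animals were male, 8 weeks old, fed chow, fasted overnight before the liver was taken, and on a 95% C57BL/6 background, with C57BL/6 and 129/Sv given as strains. The deleted part of Gna12 is not named in the labels, nor is it said whether the WT mice were littermates. RNA of each liver sample was read on its own 1-colour Agilent array, and the comparison asked which transcripts differ when Gα12 is missing. In such a sample, fewer cells of a type and less RNA per cell cannot be told apart.

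In autophagy a membrane sac grows around cytoplasm, closes, and fuses with a lysosome, whose acid hydrolases break down the content. The ULK1 kinase complex starts the process, a PI3-kinase complex marks the membrane with the lipid PI3P, and a pair of ubiquitin-like conjugation systems attach ATG8 proteins (the LC3 and GABARAP families) to it. Fasting is a classical stimulus of autophagy in liver, and the related factors TFEB and TFE3 are known to switch on autophagy and lysosome genes when nutrients are short.

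Levels are log2 processed intensities minus the 75th percentile on each array, and a difference is Gα12 KO minus WT on that scale, from a limma fit over all 23086 kept probes. Each SE is from the same fit, which gives both groups a shared spread and draws it toward that of all probes. A level serves to compare arrays for a gene and not genes with each other. Each array counts as 1 animal (n = 3 per group), and the number of arrays limits the precision. Gna12 had levels of -4.91, -4.62 and -3.47 in Gα12 KO livers and of -3.48, -4.55 and -0.89 in WT livers, and its probe was well above background on WT replicate 3 alone, so it is a weak check of the genotype. Probes well above background numbered 20743 to 22432 on the Gα12 KO arrays, 22921 and 23483 on WT replicates 1 and 2, and 28711 on WT replicate 3. WT replicate 3 also had the highest 75th percentile, 9.09 in log2, beside 7.80 to 8.63 on the other arrays. By correlation and by the spread of Gapdh probes, WT replicates 1 and 2 stood apart from the other 4 arrays. They correlated with the Gα12 KO arrays at r = 0.868 to 0.929 across probes and WT replicate 3 did so at 0.966 to 0.982. The 7 probes of Gapdh, a glycolytic enzyme gene, spanned 4.36 to 4.87 log2 units on the Gα12 KO arrays, 4.01 on WT replicate 3, 9.58 on WT replicate 1 and 7.79 on WT replicate 2. The part of this difference between arrays in the results below was not tested. Differences are therefore set beside the Gα12 KO mean minus WT replicate 3 alone, which leaves out WT replicates 1 and 2. The Gα12 KO and WT arrays lay in different rows of the slide, also in that comparison.

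None of the 35 genes passed the test. Limma called 0 of 35 at an adjusted p below 0.05, and 0% of all genes tested, and the adjusted p of the 35 ran from 0.235 to 0.945. At an unadjusted p below 0.05, 4 of the 35 (11.4%) were lower in Gα12 KO livers, against 16.6% of all genes, and 0 were higher, against 3.97%. Over all genes this split was 2034 lower and 487 higher, and 1454 lower and 626 higher when arrays were scaled to the median of kept probes. The 4 were Lamp2, Atg5, Atg9a and Atg12. All 3 Gα12 KO livers lay below all 3 WT livers for 6 genes (17.1%, against 21.1% of all genes) and above them for 2 (5.71%, against 4.36%). The difference was below 0 for 23 genes (65.7%, against 72.4%), and the median difference was -0.35 over the 35 and -0.50 over all genes. These shares were near those of the whole array or below them.

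The WT livers carried most of the spread. The median SD between livers over the 35 genes was 0.13 in Gα12 KO and 0.71 in WT, beside 0.19 and 0.65 over all genes. For 28 of the 35 genes (80.0%, and 75.7% of all genes) WT replicates 1 and 2 both lay outside the range of the other 4 arrays, above it for 20 genes and below it for 8. Set against WT replicate 3 alone, the Gα12 KO mean was within 0.5 log2 units for 31 of the 35 genes, the median difference was -0.02, and 19 differences had the opposite sign. With 1 WT liver, such a difference has no check against the spread between WT animals.

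**Figure D1:**
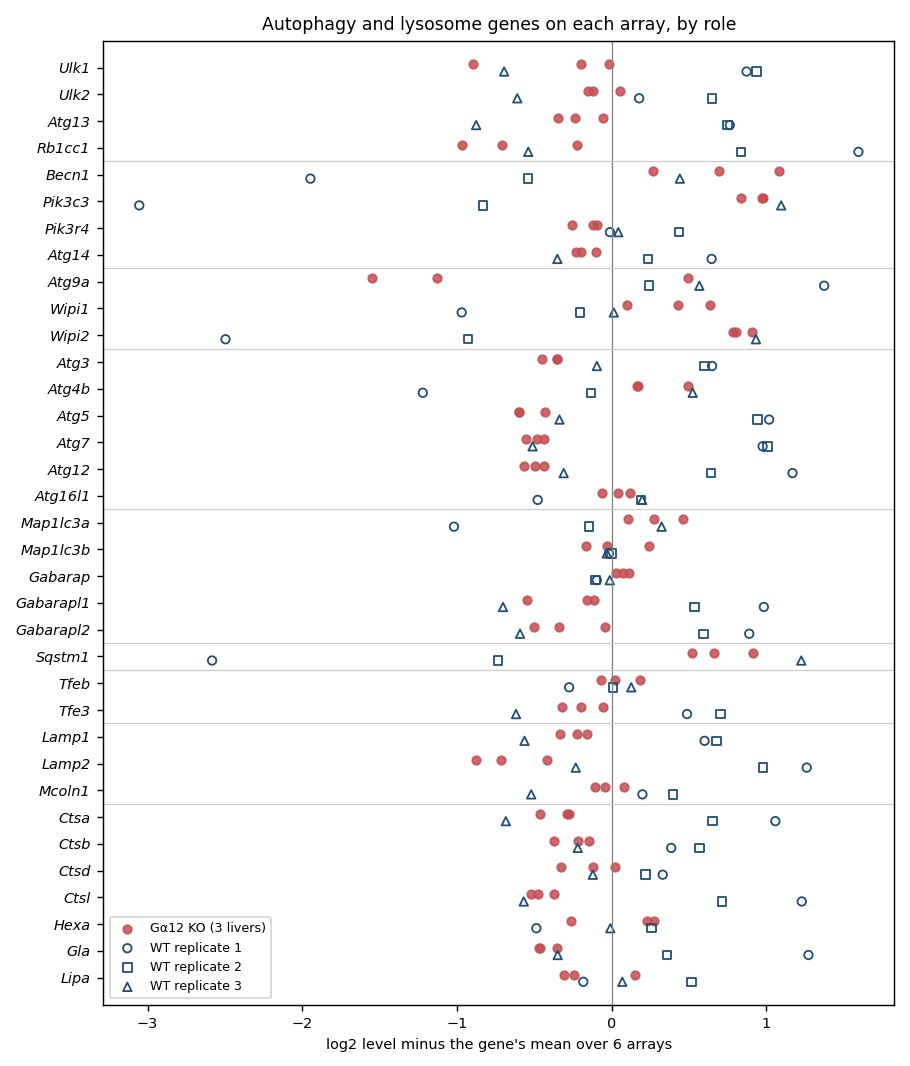
Each row is 1 of the 35 genes, ordered by role, and the horizontal axis is the log2 level on an array minus the gene's mean over the 6 arrays. Filled circles are the 3 Gα12 KO livers and open symbols the 3 WT livers. For 28 genes WT replicates 1 and 2 lie outside the range of the other 4 arrays, and WT replicate 3 mostly lies beside the Gα12 KO livers.

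The genes of the ULK1 initiation complex had differences below 0 in 4 of 4 cases, beside 72.4% of all genes. Against WT replicate 3 alone 1 of the 4 was negative. Their median difference was -0.58, and 0 had an unadjusted p below 0.05. Ulk1, the kinase that starts autophagy when TORC1 is off, had levels of 4.79, 5.48 and 5.67 in Gα12 KO livers and of 6.56, 6.62 and 4.99 in WT livers. WT replicate 3 thus lay among the Gα12 KO livers, and the groups overlapped. The fitted difference of Ulk1 was -0.74 (SE 0.52, limma adjusted p = 0.343), and it was 0.32 against WT replicate 3 alone. Rb1cc1, which encodes the scaffold FIP200, had the lowest difference of the 4, -1.26 (SE 0.56, limma adjusted p = 0.239), and it was -0.09 against WT replicate 3 alone. Its other probe differed by -0.58, and by -0.29 against WT replicate 3 alone, and on that probe all Gα12 KO livers lay below all WT livers. Atg13, the regulatory subunit, differed by -0.43 and the related kinase gene Ulk2 by -0.15, and against WT replicate 3 alone by 0.66 and 0.54.

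Genes of the PI3-kinase complex were divided. Becn1 and Pik3c3, which encode the regulator Beclin 1 and the catalytic subunit VPS34, had positive differences, and Pik3r4 and Atg14, which encode the subunits VPS15 and ATG14, had negative ones. Pik3c3 had levels of -0.05, -0.05 and -0.19 in Gα12 KO livers and of -4.08, -1.86 and 0.07 in WT livers, where WT replicate 1 was not well above background. Its difference of 1.86 (SE 0.91, limma adjusted p = 0.248) became -0.17 against WT replicate 3 alone. It was the one gene of the 35 that was not well above background on all 6 arrays. Becn1 differed by 1.36 (SE 0.60), and by 0.24 against WT replicate 3 alone.

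Pik3r4 was among the genes whose groups did not overlap, with levels of 0.58, 0.72 and 0.74 in Gα12 KO livers and of 0.83, 1.27 and 0.88 in WT livers. The gap between the nearest livers was small, and the fitted difference was -0.31 (SE 0.31, limma adjusted p = 0.482) and -0.20 against WT replicate 3 alone. Atg14, which directs the complex to autophagy, had levels of 2.02, 1.89 and 1.93 in Gα12 KO livers and of 2.77, 2.36 and 1.77 in WT livers. Here WT replicate 3 lay below every Gα12 KO liver and the other WT livers above, and the difference was -0.35 (SE 0.35), and 0.17 against WT replicate 3 alone.

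Atg9a, the gene of the lipid scramblase that rides on the vesicles that seed the sac, had the most negative difference of the 35. Its levels were -2.20, -1.78 and -0.15 in Gα12 KO livers and 0.73, -0.40 and -0.08 in WT livers. Gα12 KO replicate 3 lay within the range of the WT livers, so the groups overlapped. The difference was -1.46 (SE 0.59, limma adjusted p = 0.235), and at -1.30 against WT replicate 3 alone it was the difference that moved least among those with an unadjusted p below 0.05.

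The WIPI proteins read PI3P on the growing membrane and recruit the conjugation machinery. Wipi1 was 1 of 2 genes whose Gα12 KO livers all lay above the WT livers, at 0.66, 0.33 and 0.87, against -0.74, 0.03 and 0.24 in WT livers. The difference was 0.77 (SE 0.38, limma adjusted p = 0.246), and it was 0.37 against WT replicate 3 alone. On the dimmer Wipi1 probe the groups overlapped, and the difference was 1.19 (SE 0.62), and -0.26 against WT replicate 3 alone. That probe was well above background on 2 of the 3 WT arrays. Wipi2 had levels of 1.78, 1.76 and 1.88 in Gα12 KO livers and of -1.52, 0.04 and 1.91 in WT livers. The range of the WT livers took in the Gα12 KO values, and the difference of 1.66 (SE 0.77) was -0.10 against WT replicate 3 alone. On its other, dimmer probe the groups of Wipi2 did not overlap, and the difference there was 1.23 (SE 0.43, limma adjusted p = 0.235), and 0.43 against WT replicate 3 alone.

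Of the 6 conjugation enzyme genes, 4 (66.7%) had negative differences, beside 72.4% of all genes. At an unadjusted p below 0.05, 2 of the 6 (33.3%) were lower, beside 16.6% of all genes. For 3 of the 6 all Gα12 KO livers lay below all WT livers, as for 21.1% of all genes. These 3 encode proteins of linked reactions: ATG12 is joined to ATG5, and that pair helps ATG3 pass ATG8 proteins to the membrane lipid. Atg5 had levels of 4.18, 4.17 and 4.34 in Gα12 KO livers and of 5.79, 5.71 and 4.43 in WT livers. WT replicate 3 lay just above the Gα12 KO livers and the other WT livers more than 1 unit higher. The difference was -1.08 (SE 0.43, limma adjusted p = 0.235), and -0.20 against WT replicate 3 alone.

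Atg12 followed the same order, with 3.11, 3.03 and 3.16 in Gα12 KO livers and 4.77, 4.24 and 3.29 in WT livers. It differed by -1.0 (SE 0.42, limma adjusted p = 0.237), and by -0.19 against WT replicate 3 alone. On its other probe the groups of Atg12 overlapped and the difference was -0.65 (SE 0.38). Atg3, the E2-like enzyme, had levels of 3.60, 3.51 and 3.61 in Gα12 KO livers and of 4.61, 4.56 and 3.86 in WT livers. All Gα12 KO livers were lower, by a fitted -0.77 (SE 0.34, limma adjusted p = 0.238) and by -0.29 against WT replicate 3 alone.

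Atg7, the E1-like enzyme that activates both systems, gave opposite answers with its 2 probes, as described below. Atg4b, a protease that trims ATG8 proteins, differed by 0.55 (SE 0.47) and by -0.25 against WT replicate 3 alone. Atg16l1, whose protein places the ATG12 and ATG5 pair on the membrane, differed by 0.06 (SE 0.33) and by -0.17 against WT replicate 3 alone.

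The ATG8 family had a median difference of 0.03 over 5 genes, with 0 at an unadjusted p below 0.05. Map1lc3b, which encodes LC3B, the standard marker of autophagosomes, ranged over 4.96 to 5.36 in Gα12 KO livers and over 5.09 to 5.12 in WT livers, and its difference was 0.03 (SE 0.30), and 0.05 against WT replicate 3 alone. Gabarap had levels of 6.63, 6.59 and 6.55 in Gα12 KO livers and of 6.42, 6.41 and 6.50 in WT livers. The groups did not overlap. The gap was smaller than the SE, but the SE is drawn toward the spread of all probes. The SD between livers for this gene was 0.04 in Gα12 KO and 0.05 in WT. The difference was 0.14 (SE 0.29, limma adjusted p = 0.735), and 0.08 against WT replicate 3 alone. On the dimmer Gabarap probe the groups overlapped, and the difference was 1.13 (SE 0.62), and -0.23 against WT replicate 3 alone. Gabarapl1, a family member that FOXO factors induce in fasting, had levels of 9.30, 9.25 and 8.86 in Gα12 KO livers and of 10.39, 9.95 and 8.71 in WT livers. WT replicate 3 was the lowest of the 6, and the difference of -0.55 (SE 0.47) was 0.43 against WT replicate 3 alone. Gabarapl2 and Map1lc3a differed by -0.59 and 0.56, and by 0.30 and -0.04 against WT replicate 3 alone.

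Sqstm1 encodes p62, the receptor that ties ubiquitinated cargo to LC3 and is itself degraded by autophagy. Its levels were 3.67, 3.42 and 3.28 in Gα12 KO livers and 0.18, 2.03 and 3.99 in WT livers. The WT livers spanned more than 3 log2 units and took in every Gα12 KO value. The difference was 1.40 (SE 0.85, limma adjusted p = 0.3), and against WT replicate 3 alone it was -0.53.

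The groups overlapped for both factor genes on their brighter probes, and for Tfe3 they did not on the dimmer one, given with the probe pairs below. Tfeb ranged over -1.18 to -0.92 in Gα12 KO livers and over -1.38 to -0.98 in WT livers, with a difference of 0.09 (SE 0.30, limma adjusted p = 0.841), and -0.08 against WT replicate 3 alone. Tfe3 had levels of 2.98, 2.84 and 2.71 in Gα12 KO livers and of 3.52, 3.74 and 2.42 in WT livers on its brighter probe. WT replicate 3 was the lowest liver on it, and the difference was -0.38 (SE 0.41), and 0.43 against WT replicate 3 alone.

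Among the lysosomal genes, 9 of 10 had negative differences, beside 72.4% of all genes, and 1 of 10 was lower at an unadjusted p below 0.05, beside 16.6%. Against WT replicate 3 alone 5 of the 10 were negative. The gene with the low p was Lamp2, which encodes a main glycoprotein of the lysosomal membrane that is needed for fusion with autophagosomes. Its brighter probe had levels of 5.54, 5.37 and 5.83 in Gα12 KO livers and of 7.51, 7.23 and 6.02 in WT livers. The groups did not overlap, and WT replicate 3 lay nearest to the Gα12 KO livers. The difference was -1.34 (SE 0.45, limma adjusted p = 0.235), and -0.44 against WT replicate 3 alone. The other Lamp2 probe, which carries the accession of another transcript of the gene, differed in the opposite direction.

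Lamp1, the companion membrane glycoprotein gene, had levels of 8.41, 8.48 and 8.30 in Gα12 KO livers and of 9.24, 9.31 and 8.07 in WT livers. WT replicate 3 lay below the Gα12 KO livers and the other WT livers above them, and the difference was -0.48 (SE 0.41, limma adjusted p = 0.427), and 0.32 against WT replicate 3 alone. Mcoln1, the gene of a lysosomal calcium channel that acts upstream of TFEB, differed by -0.05 (SE 0.35) and by 0.50 against WT replicate 3 alone.

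The 7 enzyme genes ranged in difference from -0.92 to 0.16, with a median of -0.49, close to the -0.50 of all genes. Gla, which encodes α-galactosidase A, the enzyme that is deficient in Fabry disease, had levels of 7.43, 7.43 and 7.55 in Gα12 KO livers and of 9.17, 8.26 and 7.55 in WT livers. Its groups did not overlap only because Gα12 KO replicate 3 lay marginally below WT replicate 3. The difference was -0.86 (SE 0.44, limma adjusted p = 0.257), and -0.08 against WT replicate 3 alone. Ctsl, the cysteine protease cathepsin L, had levels of 8.05, 7.90 and 7.95 in Gα12 KO livers and of 9.66, 9.14 and 7.86 in WT livers. WT replicate 3 was the lowest liver, and the difference of -0.92 (SE 0.48) was 0.11 against WT replicate 3 alone.

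The other proteases, cathepsins A, B and D, encoded by Ctsa, Ctsb and Ctsd, differed by -0.68, -0.49 and -0.29 on their brighter probes, and by 0.34, -0.03 and -0.02 against WT replicate 3 alone. Lipa, the acid lipase that frees cholesterol and fatty acids from lipoprotein and droplet lipids, differed by -0.27 (SE 0.34), and Hexa, a subunit of β-hexosaminidase, by 0.16 (SE 0.35). For Hexa and Lipa the livers of both genotypes were interspersed, and against WT replicate 3 alone they differed by 0.09 and -0.20.

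**Figure D2:**
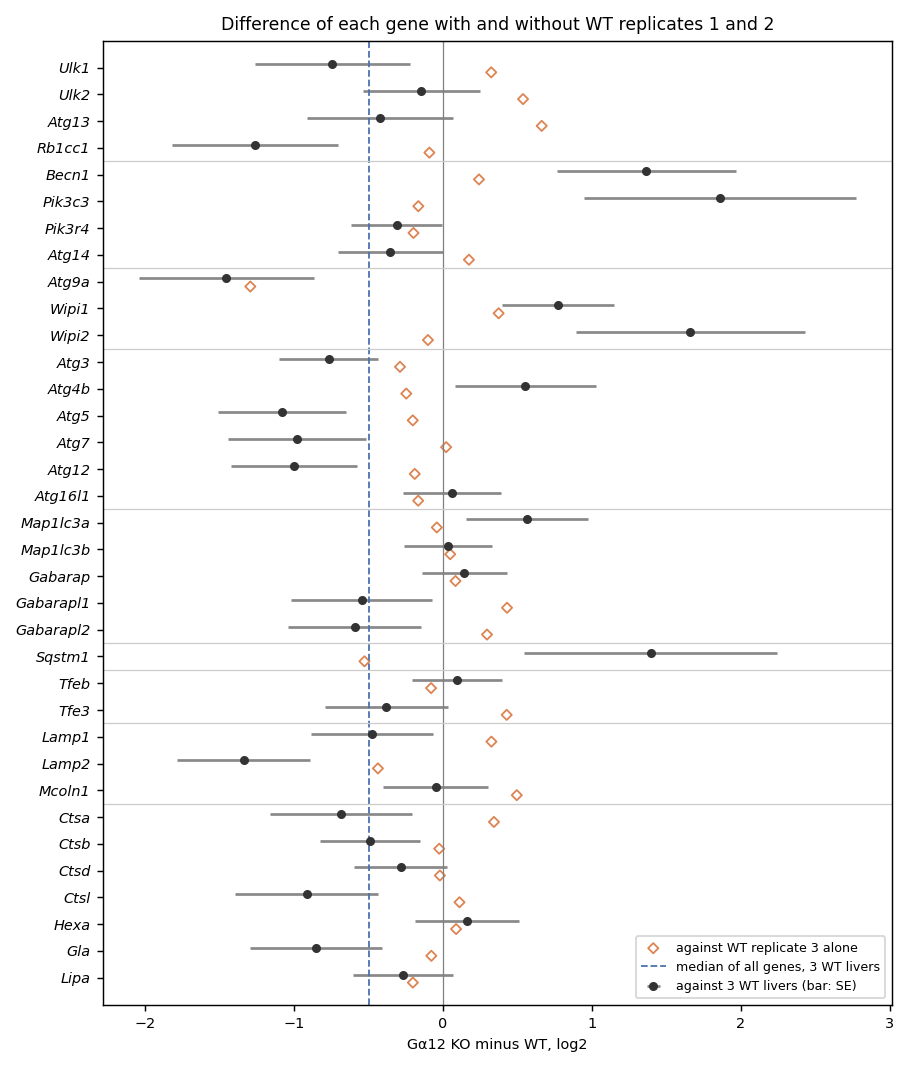
Filled circles show the fitted log2 difference, Gα12 KO minus WT, of each of the 35 genes with its SE as a bar (n = 3 per group), and open diamonds the Gα12 KO mean minus WT replicate 3 alone. The dashed line marks the median of all genes at -0.50. The diamonds gather around 0, with 31 of 35 within 0.5, and Atg9a is the gene with a diamond farthest from it.

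The machinery and the lysosome were then set side by side. The median difference was -0.31 over the 23 machinery genes and -0.48 over the 10 lysosomal genes, so the lysosomal median lay -0.17 from that of the machinery. For the machinery genes the median deviation from each gene's mean was -0.10, -0.12 and -0.02 on the Gα12 KO arrays and 0.18, 0.24 and -0.03 on the WT arrays. For the lysosomal genes it was -0.18, -0.23 and -0.34 on the Gα12 KO arrays and 0.49, 0.54 and -0.29 on the WT arrays. In both classes WT replicates 1 and 2 were the high arrays and WT replicate 3 lay within the range of the Gα12 KO arrays. All genes together gave -0.23, -0.24 and -0.24 on the Gα12 KO arrays and 0.57, 0.44 and -0.20 on the WT arrays. Against WT replicate 3 alone the medians were -0.04 for the machinery, 0.03 for the lysosomal genes and -0.03 for all genes.

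The machinery genes spread in both directions. Their differences ran from -1.46 to 1.86, and 13 of 23 were negative. The lysosomal ones ran from -1.34 to 0.16, and 9 of 10 were negative, beside 72.4% of all genes. Against WT replicate 3 alone 12 of the 23 machinery genes and 5 of the 10 lysosomal genes were negative. This is a description of chosen genes, and the difference between the classes has no test.

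**Figure D3:**
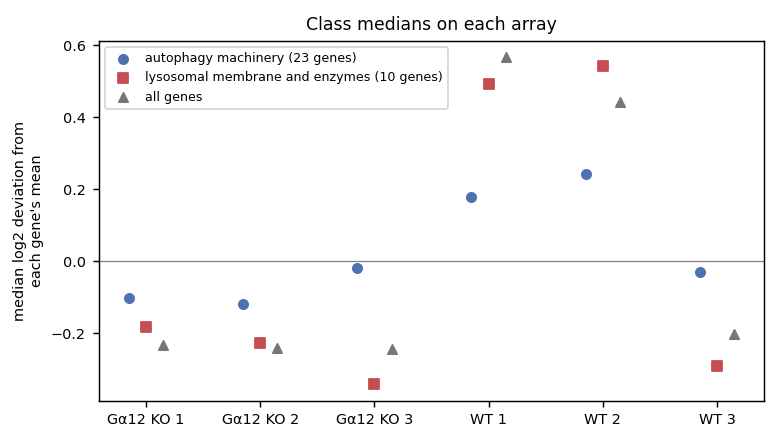
For each array the plot shows the median, over the genes of a class, of the log2 level minus the gene's mean over 6 arrays. On WT replicates 1 and 2 the lysosomal genes stand at 0.49 and 0.54 and the machinery at 0.18 and 0.24, and on the other 4 arrays all 3 classes lie below 0.

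Probes of the same gene did not always point the same way. Of the 35 genes 12 had a second probe, and for 4 of these, Atg7, Tfe3, Lamp2 and Ctsd, the 2 differences had opposite signs. The brighter Atg7 probe had levels of 2.64, 2.75 and 2.71 in Gα12 KO livers and of 4.17, 4.20 and 2.68 in WT livers, a difference of -0.98 (SE 0.46). The dimmer had 0.15, 0.15 and 0.10 in Gα12 KO livers and -2.89, -2.32 and 0.50 in WT livers, a difference of 1.70 (SE 0.81). This dimmer probe was well above background on all 3 Gα12 KO arrays and on 2 of the 3 WT arrays. The brighter and the dimmer Atg7 probe gave 0.02 and -0.36 against WT replicate 3 alone. The arrays that were high on 1 probe were low on the other, and they were WT replicates 1 and 2 in both cases.

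The same held for Ctsd and Lamp2. On its dimmer probe Ctsd had levels of 1.46, 1.21 and 1.75 in Gα12 KO livers and of -2.62, -2.41 and 2.39 in WT livers, a difference of 2.36 (SE 1.22), where the brighter probe gave -0.29. The second Lamp2 probe had levels of 5.99, 5.71 and 5.65 in Gα12 KO livers and of 3.74, 4.22 and 6.10 in WT livers, a difference of 1.09 (SE 0.60). These second probes gave -0.91 for Ctsd and -0.32 for Lamp2 against WT replicate 3 alone. For Tfe3 the second probe differed by 0.87 (SE 0.34, limma adjusted p = 0.235), and all Gα12 KO livers lay above all WT livers on it, with 0.46 against WT replicate 3 alone.

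The distance between the brighter and the dimmer probe of a gene therefore differed between arrays. For Ctsd it was 4.77, 4.88 and 4.13 log2 units on the Gα12 KO arrays and 9.16, 8.84 and 3.70 on the WT arrays. For Atg7 it was 2.49, 2.60 and 2.61 on the Gα12 KO arrays and 7.05, 6.52 and 2.18 on the WT arrays. In 10 of the 12 genes both WT replicates 1 and 2 lay outside the range of the other 4 arrays in this distance. These are the arrays on which the Gapdh probes spanned 9.58 and 7.79 log2 units. The direction given for these 4 genes depends on the probe, and with the mean over a gene's probes the difference was 0.36 for Atg7, 0.25 for Tfe3 and 1.04 for Ctsd, against -0.12 for Lamp2.

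**Figure D4:**
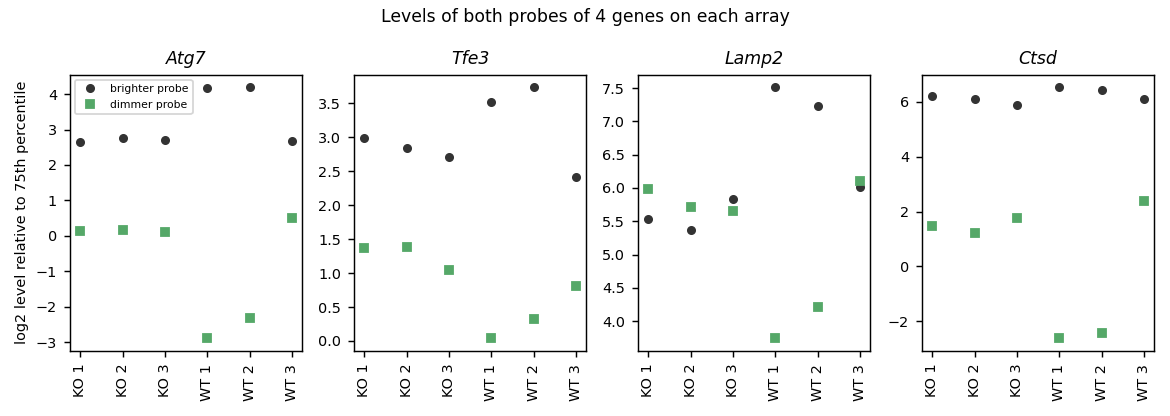
Each panel shows the log2 level of both probes of 1 gene on the 3 Gα12 KO arrays and the 3 WT arrays, with circles for the brighter probe and squares for the dimmer. On WT replicates 1 and 2 the 2 probes move apart, as for Atg7 at 4.17 and -2.89 on WT replicate 1, while WT replicate 3 resembles the Gα12 KO arrays. The dimmer Atg7 probe was well above background on 2 of the 3 WT arrays.

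TFEB and TFE3 bind a palindromic DNA element known as the CLEAR motif, and promoters were read for its core. The letters searched were TCACGTGA, which read the same on both strands and contain the E-box CACGTG. Windows ran from 250 bases before to 50 after the start of each gene in RefSeq (GRCm38.p6), and 28 of the 35 genes were in that table. The core was present for 5 of these 28 genes (17.9%), against 1.12% of all 27025 genes in the table, and the shorter CACGTG for 10 of 28 (35.7%), against 8.09%. The core was in 4 of 9 lysosomal genes, Ctsa, Ctsd, Gla and Mcoln1, and in 1 of 17 machinery genes, Atg3. A match is a description of these windows and not of binding. The stretches around a match before the start site are shown because these 5 genes are the ones whose promoters share the element, with the core in capitals, 5′ to 3′ on the strand of the gene.
Ctsa (chr2:164833734-164833772, plus strand): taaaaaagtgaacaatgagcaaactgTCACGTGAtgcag
Ctsd (chr7:142387893-142387952, minus strand): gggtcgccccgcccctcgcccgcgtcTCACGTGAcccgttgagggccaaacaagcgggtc
Mcoln1 (chr8:3500447-3500506, plus strand): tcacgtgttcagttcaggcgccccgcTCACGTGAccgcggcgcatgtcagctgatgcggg
Atg3 (chr16:45158731-45158790, plus strand): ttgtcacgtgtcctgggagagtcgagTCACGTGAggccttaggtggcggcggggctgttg
Gla (chrX:134601167-134601226, minus strand): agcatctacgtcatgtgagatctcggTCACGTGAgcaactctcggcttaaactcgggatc

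Ctsa and Gla each held a second match. The differences of the 5 genes on their brighter probes were -0.86 for Gla, -0.77 for Atg3, -0.68 for Ctsa, -0.29 for Ctsd and -0.05 for Mcoln1. All 5 were negative, as were 23 of the 35 genes and 72.4% of all genes, and 0 of the 5 had an unadjusted p below 0.05. Against WT replicate 3 alone Ctsa stood at 0.34 and Mcoln1 at 0.50, Gla at -0.08, Ctsd at -0.02 and Atg3 at -0.29.

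Further genes of autophagy were read from a list of 36, of which 33 were measured. In limma 0 passed at an adjusted p below 0.05. At an unadjusted p below 0.05, 9 were lower (27.3%) and 0 higher in Gα12 KO livers, beside 16.6% and 3.97% of all genes. This higher share was not tested. The median difference was -0.60, and -0.24 against WT replicate 3 alone. Atg4c, an ATG8 protease gene like Atg4b, had levels of 0.23, 0.23 and 0.28 in Gα12 KO livers and of 2.09, 2.10 and 0.61 in WT livers, a difference of -1.36 (SE 0.46). Snap29, a SNARE gene for the fusion of autophagosome and lysosome, differed by -1.14 (SE 0.39), Atg16l2, a relative of Atg16l1, by -2.04 (SE 0.72), and the lipid transfer protein gene Atg2b by -1.03 (SE 0.37). These 4 had a limma adjusted p of 0.235 each, and on these probes the groups of Snap29, Atg2b and Atg4c did not overlap. The differences were -0.37 for Atg4c, -0.55 for Snap29, -0.64 for Atg16l2 and -0.43 for Atg2b against WT replicate 3 alone. The dimmer probes gave -0.34 (SE 0.39) for Snap29 and -0.47 (SE 0.47) for Atg16l2, both with overlapping groups. The dimmer Atg4c probe was well above background on no Gα12 KO array and on all 3 WT arrays. Its difference was -2.69 (SE 0.46, limma adjusted p = 0.190), with groups that did not overlap, and -2.27 against WT replicate 3 alone. Since the Gα12 KO signal was not above background, the size is a bound, at least 5.27-fold lower.

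Of 37 measured genes of other lysosomal hydrolases and their cofactors, limma gave 3 below 0 (8.11%) and 0 above 0 with an unadjusted p under 0.05, beside 16.6% and 3.97% of all genes, and the median difference was -0.15. The 3 were Arsa (-1.44, SE 0.50), whose sulfatase acts on myelin lipids, the peptidase gene Tpp1 (-1.01, SE 0.40) and the acid nuclease gene Dnase2a (-1.29, SE 0.52). They stood at -0.30, -0.22 and -0.26 against WT replicate 3 alone. Of 18 other lysosomal membrane genes 1 was lower and 1 higher (5.56% each), beside 16.6% and 3.97% of all genes. Clcn7, the chloride and proton exchanger gene, had levels of 1.36, 1.59 and 1.60 in Gα12 KO livers and of -1.95, -0.82 and 1.35 in WT livers, and Ostm1, which encodes its β subunit, had 2.10, 2.24 and 2.38 in Gα12 KO livers and 3.90, 3.64 and 2.41 in WT livers. The subunits of this 1 exchanger thus had differences of opposite sign, 1.99 (SE 0.76) for Clcn7 and -1.08 (SE 0.44) for Ostm1, both with groups that did not overlap and a limma adjusted p of 0.235. Clcn7 stood at 0.17 and Ostm1 at -0.17 against WT replicate 3 alone.

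The vacuolar ATPase pumps the protons that acidify the lysosome. Of its 18 measured subunit genes, 3 negative (16.7%) and 2 positive (11.1%) differences had an unadjusted p under 0.05, beside 16.6% and 3.97% of all genes, with a median of -0.24 and 0 past the limma threshold. Atp6v0d2 had levels of -2.27, -2.30 and -2.58 in Gα12 KO livers and of 0.01, -0.29 and -0.96 in WT livers, and here WT replicate 3 lay above the Gα12 KO livers, with a difference of -1.42 against it alone. Its probe was well above background on 1 of the 3 Gα12 KO arrays. The difference of Atp6v0d2 was -1.97 (SE 0.36, limma adjusted p = 0.205) on this probe. Its other probe had -0.55, -1.60 and -4.76 in Gα12 KO livers and -2.79, -3.00 and -2.57 in WT livers. The difference there was 0.48 (SE 0.96) with overlapping groups, so the direction for Atp6v0d2 depends on the probe. On Gα12 KO replicate 3 this other probe lay below -2.79, the lowest level of a probe well above background on that array. Background thus limits the other probe too. Subunits that are expressed in all tissues went in either direction, Atp6v0c by 1.62 (SE 0.62), Atp6ap2 by -1.0 (SE 0.41) and Atp6v1a by -0.98 (SE 0.40). These 3 stood at 0.22, -0.22 and -0.19 against WT replicate 3 alone. Atp6ap1 was the other gene with a positive difference at an unadjusted p below 0.05. It differed by 2.59 (SE 1.11), and by -0.25 against WT replicate 3 alone. Its probe was well above background on 2 of the 3 WT arrays.

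Markers of the cells of the tissue were read beside these genes, since macrophages are rich in lysosomes. The 8 hepatocyte markers were well above background on all 6 arrays, with a summed level, in log2, of 12.25 to 12.66 on the Gα12 KO arrays and 11.98 to 12.68 on the WT arrays, as liver should give. All 10 markers of Kupffer cells and macrophages were well above background on all arrays, and their summed level was 6.67 to 6.92 on the Gα12 KO arrays and 6.59 to 7.60 on the WT arrays, with WT replicates 1 and 2 at 7.60 and 7.56. Their median difference was -0.17, with 1 positive and 0 negative differences that had an unadjusted p under 0.05. The summed level ran from 2.28 to 2.52 on the Gα12 KO arrays and from 1.90 to 2.58 on the WT arrays for 4 neutrophil markers, of which Mpo was above background on no array. For 4 skeletal muscle markers, of which Ckm was above background on no array, it ran from -1.52 to 1.84 on the Gα12 KO arrays and from -2.42 to -1.64 on the WT arrays. The red cell markers gave 8.03 to 8.25 on the Gα12 KO arrays and 8.18 to 9.03 on the WT arrays, and those of 5 stellate cell genes 2.21 to 2.61 on the Gα12 KO arrays and, on the WT arrays, 2.62 to 4.0. For 5 sinusoidal endothelial markers the sums were 6.47 to 6.85 on the Gα12 KO arrays and 6.66 to 7.02 on the WT arrays, and those of 5 lymphocyte markers were 2.11 to 2.82 on the Gα12 KO arrays and 2.05 to 2.65 on the WT arrays. For 4 cholangiocyte markers they were -0.21 to 0.18 on the Gα12 KO arrays and 0.01 to 0.38 on the WT arrays. Markers well above background on all 6 arrays were 2 of 4 for neutrophils, 0 of 4 for skeletal muscle and 3 of 5 for stellate cells. They were 1 of 5 for lymphocytes and 1 of 4 for cholangiocytes. Sums were taken on the linear scale, so the brightest marker of a list weighs most in its sum. The part of these cell types in the differences of the autophagy and lysosomal genes was not tested.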

How the data were processed

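Liver RNA of 3 Gα12 KO and 3 WT mice was measured on 1-colour arrays that lay on 1 slide and were scanned once, with the knockout arrays in row 2 and the WT arrays in row 1, per the file headers, so the row on the slide and the genotype cannot be told apart. The scans were quantified in Agilent Feature Extraction 10.7.3.1, per the submitters' processing notes. The deposited scanner files hold spot intensity on a linear scale, namely a processed intensity with background subtracted and raw medians of spot and background. The series matrix, also deposited, has log2 values that followed the log2 processed intensity of the same array (r at least 0.999); its scaling constants were not given in the sources used here. Its column medians were 4.32, 4.44 and 4.52 for the knockout and 4.41, 4.17 and 4.70 for WT.

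From the processed intensity, a level was computed as its log2 less the 75th percentile over non-control spots. Control spots and spots marked as outliers were left out, which cost 357 of 55681 probes, and no spot was saturated. The filter kept 23086 probes, those well above background in 3 or more of the 6 arrays. The files name probes by accession, and 26756 were given a symbol through RefSeq GRCm38.p6. A gene was its kept probe with the highest mean over the 6 arrays, also in the alternatives that kept that probe. Gα12 KO minus WT was fitted by lmFit and eBayes of limma 3.58.1 (R 4.3.3), with a two-sided p and Benjamini-Hochberg adjustment over kept probes. The script was tested on simulated arrays that gave both groups the spread of the Gα12 KO livers, so the wider WT spread was not covered. Counts at an unadjusted p below 0.05 are descriptive. Gna12, dim on 5 arrays, was read from a fit over all probes.

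The genes, lists and alternatives were chosen with earlier results of these data known. Each of the 35 genes is accounted for. Array values are given where an unadjusted p was below 0.05 or groups did not overlap, for the gene with the brightest probe of each role, and, chosen after their values were seen, for probes that disagreed and for Pik3c3, and Atp6ap1 was named on the same basis. Of other lists up to 4 genes with the lowest p are named. Alternatives were normexp, other scalings, the deposited matrix, other filters, outlier marks, the mean over probes, trend and robust estimation, a replicate block, left-out arrays and the Gapdh probe spread as a covariate. Normexp used median spot signals, since the files hold no mean signal.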

Additional observations from a re-analysis of the deposited data

How the results depend on the processing

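Signs of single genes turned in 51 of 627 comparisons over 18 alternatives, and 11 of the 35 genes kept their sign in all of those run for them. Without WT replicates 1 and 2 together the difference was 0.32 for Ulk1, 0.54 for Ulk2, 0.66 for Atg13, -0.17 for Pik3c3, 0.17 for Atg14, -0.10 for Wipi2, -0.25 for Atg4b, 0.021 for Atg7, -0.17 for Atg16l1, -0.042 for Map1lc3a, 0.43 for Gabarapl1, 0.30 for Gabarapl2, -0.53 for Sqstm1, -0.081 for Tfeb, 0.43 for Tfe3, 0.32 for Lamp1, 0.50 for Mcoln1, 0.34 for Ctsa and 0.11 for Ctsl. With the spread of the Gapdh probes as covariate it was 0.26 for Ulk2, 0.34 for Atg13, 0.071 for Atg14, -0.14 for Atg4b, -0.19 for Atg16l1, 0.22 for Gabarapl1, 0.069 for Gabarapl2, -0.18 for Sqstm1, -0.057 for Tfeb, 0.16 for Tfe3, 0.080 for Lamp1, 0.31 for Mcoln1 and 0.10 for Ctsa. Quantile normalization gave 0.25 for Ulk2, 0.061 for Atg13, -0.0043 for Tfeb, 0.047 for Tfe3, 0.43 for Mcoln1, 0.039 for Ctsb, 0.23 for Ctsd and 0.15 for Lipa. The mean over a gene's probes gave 0.36 for Atg7, 0.25 for Tfe3 and 1.04 for Ctsd, and scaling to the median of kept probes 0.088 for Mcoln1. With single arrays left out, Ulk2 ranged from -0.49 to 0.14, Atg16l1 from -0.16 to 0.17, Tfeb from -0.022 to 0.18, Mcoln1 from -0.32 to 0.14, Hexa from -0.046 to 0.33 and Map1lc3b from -0.080 to 0.12.

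Of the 35 genes, limma called 0 at an adjusted p below 0.05 in every alternative except without WT replicate 3, where it called 21 (60.0%) beside 62.3% of all genes, so single arrays left out gave 0 to 21. Genes lower at an unadjusted p below 0.05 numbered 4, and 9 with normexp, 2 with median scaling, 2 with the replicate block, 1 with the Gapdh covariate, 0 without WT replicates 1 and 2, and 0 to 17 with single arrays left out. Genes higher numbered 0, and 2 with normexp (4.06%), median scaling (5.11%) and the filter on all 6 arrays (3.79%). They also numbered 2 with the mean over probes (4.61%) and the replicate block (5.31%). They numbered 1 with quantile normalization (4.5%) and 0 to 7 with single arrays left out, the 7 without WT replicate 3 (13.3%). Non-overlapping genes below numbered 6, and 12 without WT replicates 1 and 2 (32.5%) and 6 to 21 with single arrays left out. The 21 were without WT replicate 3 (61.6%). Non-overlapping genes above numbered 2, and 1 with normexp (4.95%) or the mean over probes (4.76%). Without WT replicates 1 and 2 those above numbered 12 (26.8%). With single arrays left out they numbered 2 to 8, the 8 without WT replicate 3 (17.2%). The machinery median of -0.31 was -0.17 with median scaling, 0.061 with quantile normalization, -0.11 with the mean over probes, -0.042 without WT replicates 1 and 2, 0.037 with the Gapdh covariate, and -0.49 to -0.15 with single arrays left out. The lysosomal median of -0.48 was 0.0077 with quantile normalization, 0.033 without WT replicates 1 and 2, -0.10 with the covariate, and -0.80 to -0.29 with single arrays left out. The deviations of same-numbered livers from their group means correlated at -0.09 to -0.02. With 3 livers per group these values cannot show whether replicate numbers paired the samples, and the main fit did not pair them. The median of all genes was -0.21 with quantile normalization and -0.36 with median scaling. It was -0.14 with the Gapdh covariate and -0.08 without the filter on dim probes. The fit without WT replicates 1 and 2 assumes that the lone WT liver varies like the others. With the deposited matrix 33 of the 35 genes were measured. The cause of these shifts was not tested. A signal near background limits Pik3c3 on WT replicate 1. The dimmer probes of Atg7, Wipi1 and Pik3c3 were well above background on 2 of the 3 WT arrays. For the dimmer Ctsa probe this held on 1 of the 3 Gα12 KO arrays.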

Other observations

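Genes that report nutrients to the lysosome, where TORC1 is switched on and thereby holds back ULK1 and TFEB, were read from a list of 27, of which 22 were measured. In limma 0 passed at an adjusted p below 0.05, and at an unadjusted p below 0.05 there were 3 lower (13.6%) and 1 higher (4.55%) in Gα12 KO livers, beside 16.6% and 3.97% of all genes, with a median difference of -0.63 beside -0.50 over all genes. Tsc1, a subunit of the complex that restrains TORC1, had levels of 1.58, 1.08 and 1.28 in Gα12 KO livers and of 4.20, 4.21 and 1.60 in WT livers, a difference of -2.02 (SE 0.70). The levels of WT replicate 3 and Gα12 KO replicate 1 were close to each other. Fnip1, a partner of folliculin, differed by -1.51 (SE 0.50) and the Ragulator subunit gene Lamtor2 by -1.14 (SE 0.45). Prkaa2, a catalytic subunit gene of the energy sensor AMPK, had levels of 3.01, 3.02 and 2.75 in Gα12 KO livers and of -0.08, 1.49 and 2.67 in WT livers, a difference of 1.57 (SE 0.65). The limma adjusted p was 0.235 for each of these 4 genes, and their groups did not overlap. Against WT replicate 3 alone the differences were -0.28 for Tsc1, -0.44 for Fnip1, -0.21 for Lamtor2 and 0.26 for Prkaa2.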
